A study of Mus musculus with 12 samples.

Results

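The 8 genes described here, which report or relay the electrical activity of skeletal muscle, were followed by symbol, namely Hdac4, Hdac5, Hdac9, Dach2, Gadd45a, Runx1, Ncam1 and Sik1. They are 8 of the 23923 genes analysed, and the question was whether the HDAC4-DACH2 arm of the denervation response was on in muscle that lacks the methyltransferase Smyd1. RNA was sequenced from the tibialis anterior, a mostly fast-twitch muscle of the lower leg, of 12 male mice aged 6 weeks. The 6 controls were Myf6 cre/+; Smyd1 flox/+ and the 6 Smyd1 conditional knockouts (CKO) were Myf6 cre/+; Smyd1 flox/-, on a mixed C57BL6/J;129S1/SvImJ background, with 1 library for each mouse. Every mouse carried the Cre allele, which acts in myofibers from about the time of birth, together with the Rosa26 YFP/+ reporter, and every control had 1 floxed and 1 wild-type Smyd1 allele. A whole muscle also holds nerve, vessel, connective tissue and satellite cells in which this Cre is not meant to act, and in such bulk samples fewer cells of a type and less RNA per cell cannot be told apart.

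Muscle reads its innervation through activity. Class IIa histone deacetylases (HDAC4, HDAC5, HDAC7 and HDAC9) bind MEF2 factors and hold their targets silent, and leave the nucleus when calcium-regulated kinases phosphorylate them and 14-3-3 proteins bind. After denervation HDAC4 accumulates and represses Dach2, a corepressor that works with homeodomain and EYA proteins, and the fall in DACH2 releases myogenin, which in turn drives the acetylcholine receptor genes and the ubiquitin ligases of atrophy. Hdac9 is known to behave differently, as its transcript drops when the nerve is lost. Gadd45a, Runx1 and Ncam1 are genes that denervated fibers switch on, and Sik1 encodes a CREB-induced kinase that phosphorylates class IIa HDACs.

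The bases just upstream of the class IIa HDAC and Dach2 starts are shown because the comparison turns on these genes. RefSeq on GRCm38.p6 gave 9 start sites for 6 of the 8 genes, and none was matched for Ncam1 or Sik1. Each line below holds 200 bases ending at the base before the start, read 5′ to 3′ on the strand of the gene, with matches in capitals. The Hdac4 window is chr1:92180342-92180541 (minus strand), the Hdac5 window chr11:102230173-102230372 (minus), the Hdac9 windows chr12:34917096-34917295 and chr12:34528890-34529089 (both minus), and the Dach2 windows chrX:113297310-113297509 and chrX:113298056-113298255 (both plus).
Hdac4: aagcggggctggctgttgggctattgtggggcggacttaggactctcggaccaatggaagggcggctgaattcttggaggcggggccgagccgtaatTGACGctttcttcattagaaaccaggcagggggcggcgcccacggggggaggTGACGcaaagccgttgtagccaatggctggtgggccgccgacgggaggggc
Hdac5: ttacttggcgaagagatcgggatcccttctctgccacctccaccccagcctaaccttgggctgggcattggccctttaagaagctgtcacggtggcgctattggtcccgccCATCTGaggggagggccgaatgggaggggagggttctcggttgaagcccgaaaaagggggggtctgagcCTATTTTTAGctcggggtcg
Hdac9 start 1: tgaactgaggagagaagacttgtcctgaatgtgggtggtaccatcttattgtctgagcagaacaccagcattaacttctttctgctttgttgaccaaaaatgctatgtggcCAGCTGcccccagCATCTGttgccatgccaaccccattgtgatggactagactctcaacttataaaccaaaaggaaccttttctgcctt
Hdac9 start 2: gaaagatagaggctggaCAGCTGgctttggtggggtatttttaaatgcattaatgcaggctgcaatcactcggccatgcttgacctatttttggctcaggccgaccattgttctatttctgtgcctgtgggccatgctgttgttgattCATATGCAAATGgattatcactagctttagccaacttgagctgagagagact
Dach2 start 1: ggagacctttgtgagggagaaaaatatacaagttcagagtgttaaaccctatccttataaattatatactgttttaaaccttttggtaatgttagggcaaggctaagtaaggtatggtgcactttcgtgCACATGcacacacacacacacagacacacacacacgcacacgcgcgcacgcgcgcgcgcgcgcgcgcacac
Dach2 start 2: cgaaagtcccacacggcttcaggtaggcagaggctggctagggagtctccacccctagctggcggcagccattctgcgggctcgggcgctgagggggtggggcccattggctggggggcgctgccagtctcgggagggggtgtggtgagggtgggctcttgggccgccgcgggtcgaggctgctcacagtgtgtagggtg
Both strands were searched for the E-box CANNTG, to which MYOD1 and myogenin bind, for TGACG, the core of a CREB site, and for the MEF2 consensus. The E-box occurred in 58.2% of 32851 RefSeq windows of this length, TGACG in 15.7% and the MEF2 consensus in 2.29%. The Hdac5 window held the MEF2 consensus at bases -20 to -11 from the start and an E-box at -89 to -84. The Hdac4 window held TGACG at -103 to -99 and again at -51 to -47, and no other match. Hdac9 start 1 had 2 E-boxes, beginning at -89 and -76, and start 2 had 3, beginning at -183, -52 and -46. Dach2 start 1 had 1 E-box at -71 to -66, inside a CA-rich stretch, and start 2 had no match. A match describes letters only, and binding was not measured.

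Smyd1 itself did not separate the libraries. Its FPKM, a level scaled for transcript length and library size, was 47.1, 33.4, 41.1, 32.9, 33.8 and 36.1 in controls 1 to 6 and 38.0, 32.1, 32.5, 27.8, 39.9 and 34.5 in CKO 1 to 6. The log2 fold change, CKO minus control, was -0.13 ± 0.12 (SE) with an adjusted P of 0.545, so the level over the whole gene does not check the genotype labels. The deleted part of the gene was not analysed separately here. After median-ratio scaling, which sets the typical gene equal across libraries, 5 of 6 CKO values lay below all controls and the log2 fold change was -0.32 (adjusted P = 0.0797).

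Scaling matters to the small differences that follow. In the deposited values the median log2 fold change of the 12695 genes tested was 0.18 and 77.9% of genes were positive, against 0.01 and 51.2% after median-ratio scaling. Relative depth, read from the steps between the lowest values, ran over a 1.8-fold range with medians of 1.19 in controls and 1.24 in CKOs. Control 1 and CKO 5 correlated least with their own group. The myofiber markers were abundant in every mouse, with summed levels of 16420 to 25790 FPKM in controls and 18270 to 23340 FPKM in CKOs. Of these 6 markers, 1 was higher (Myh4) and 1 lower (Acta1) at unadjusted P, where 18.1% and 1.76% of all genes passed. After median-ratio scaling 1 was higher and 4 lower, where 6.62% and 7.44% of all genes passed. At adjusted P 0 passed on either scale.

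All 8 genes passed the filter on low values, and none passed the adjusted threshold of 0.05 in limma. The 8 were chosen with earlier results of these data known. At an unadjusted P below 0.05, 6 of the 8 were higher in the CKO (Hdac4, Hdac5, Hdac9, Gadd45a, Runx1 and Ncam1) and 1 was lower (Dach2), against 18.1% and 1.76% of all genes tested. The adjusted threshold was passed by 2.02% of all genes in the higher direction and 0.268% in the lower. After median-ratio scaling the counts were 3 higher (Hdac9, Gadd45a and Ncam1) and 1 lower (Dach2) at unadjusted P, where 6.62% and 7.44% of all genes passed. Dach2 then also passed the adjusted threshold, which 0.709% of all genes did in the lower direction and 0.764% in the higher. The median log2 fold change of the 8 genes was 0.50, and 0.33 after scaling. For none of the 8 were the groups fully apart, a pattern that 2.23% of all genes showed with the CKO above and 0.189% with the CKO below. Without control 1 and CKO 5, 3 of the 8 were higher (Gadd45a, Runx1 and Ncam1) and 1 lower (Dach2) at adjusted P. That exclusion was chosen after seeing the data, and over all genes 1252 were then higher and 110 lower.

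**Figure D1:**
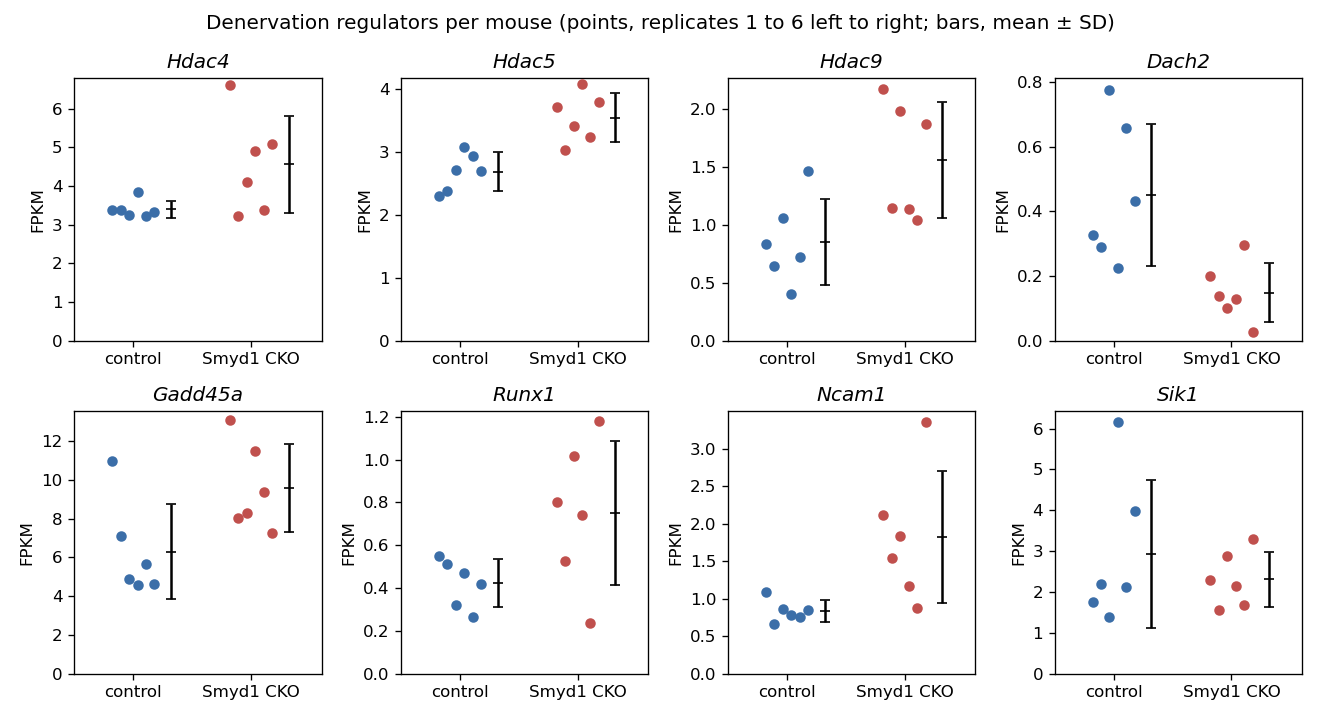
FPKM (y axis, linear, from 0) of each of the 8 genes in every mouse, with controls in blue, Smyd1 CKOs in red and black bars for the mean ± SD of 6 mice. Dach2 is below every control in 5 of 6 CKOs and Ncam1 above every control in 5 of 6, while Sik1 overlaps throughout.

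Dach2, the corepressor whose loss releases myogenin, had a log2 fold change of the largest size among the 8 at a pseudocount of 0.1, toward lower values in the CKO. At a pseudocount of 1 it was -0.33, smaller in size than the 0.57 of Ncam1. Its FPKM was 0.327, 0.290, 0.775, 0.224, 0.658 and 0.432 in controls 1 to 6. In CKO 1 to 6 it was 0.201, 0.138, 0.0997, 0.127, 0.297 and 0.0271. All CKOs but CKO 5 lay below all controls, and CKO 5 lay inside the control range. The means were 0.451 ± 0.220 FPKM (SD, n = 6) and 0.148 ± 0.0920 FPKM (SD, n = 6), a ratio of CKO to control of 0.329. The log2 fold change was -1.14 ± 0.31 (SE), with an adjusted P of 0.0639 in limma and an exact permutation P of 0.00649, where 0.00217 is the smallest that 924 assignments of 6 against 6 can give. After median-ratio scaling it was -1.26 with an adjusted P of 0.0496. The call therefore depended on scaling, and it was also reached without control 1 (adjusted P = 0.0353) and without CKO 5 (adjusted P = 0.0330). Without control 1, 69 of all genes were lower at adjusted P, against 34 with every library. Only 0.291% of the genes tested had a lower log2 fold change. Its coverage was thin, with an estimated 14 to 54 fragments per control library and 2 to 20 per CKO library. It lies on the X chromosome, and all 12 libraries were from males.

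Dach1, the paralog of Dach2, is given beside it. Its mean was 0.630 ± 0.233 FPKM in controls and 0.747 ± 0.214 FPKM in CKOs (log2 fold change 0.24, adjusted P = 0.603). Among the 8 listed partners of this family, 0 passed at adjusted and 0 at unadjusted P. The 2 with the smallest P were Six5, at 0.136 ± 0.0661 and 0.236 ± 0.0855 FPKM (log2 fold change 0.52, adjusted P = 0.263), and Eya4, at 6.44 ± 1.67 and 7.75 ± 0.961 FPKM (0.29, adjusted P = 0.306). The median log2 fold change of the list was 0.19, next to 0.18 for all genes. After median-ratio scaling 1 of the 8, Eya1, was lower at unadjusted P (log2 fold change -0.29, adjusted P = 0.334), where 7.44% of all genes passed.

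Hdac4, the class IIa deacetylase that represses Dach2 in denervated muscle, was at 3.38, 3.37, 3.26, 3.83, 3.23 and 3.34 FPKM in controls 1 to 6. In CKO 1 to 6 it was at 6.61, 3.23, 4.10, 4.92, 3.39 and 5.10 FPKM. The controls were tight and the CKOs were not: CKO 1, 3, 4 and 6 lay above all controls, whereas CKO 2 and CKO 5 lay among them. The means were 3.40 ± 0.219 and 4.56 ± 1.26 FPKM, with a log2 fold change of 0.37 ± 0.15 (SE), an adjusted P of 0.197 and an exact permutation P of 0.0368. After median-ratio scaling the log2 fold change was 0.19 with an adjusted P of 0.638 and an exact permutation P of 0.268. On that scale 3 CKOs lay above all controls. Hdac4 overlaps other annotated loci, and without known strand in the counting their reads cannot be told apart.

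Hdac5, which acts beside Hdac4 in the class IIa group, was more even. Its FPKM was 2.29, 2.37, 2.71, 3.08, 2.93 and 2.69 in controls 1 to 6 and 3.71, 3.03, 3.41, 4.07, 3.23 and 3.79 in CKO 1 to 6. All CKOs but CKO 2 lay above all controls. The means were 2.68 ± 0.308 and 3.54 ± 0.386 FPKM (log2 fold change 0.39 ± 0.11, adjusted P = 0.0830, exact permutation P = 0.00433). After median-ratio scaling the log2 fold change was 0.21, the adjusted P 0.494 and the exact permutation P 0.0974. On that scale only 2 CKOs lay above all controls.

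Hdac9, the class IIa member that includes the short MEF2-binding form MITR, was at 0.829, 0.640, 1.05, 0.401, 0.724 and 1.46 FPKM in controls 1 to 6. In CKO 1 to 6 it was at 2.17, 1.15, 1.98, 1.14, 1.04 and 1.87 FPKM. CKO 1, 3 and 6 exceeded every control, and the other CKOs fell between the highest and lowest control. The means were 0.852 ± 0.368 and 1.56 ± 0.503 FPKM (log2 fold change 0.83 ± 0.26, adjusted P = 0.107, exact permutation P = 0.0217). After scaling the log2 fold change was 0.66 with an unadjusted P of 0.0197 and an adjusted P of 0.239. The exact permutation P was then 0.0455. No CKO value lay below the control mean. The whole-gene FPKM does not tell the long form from MITR.

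**Figure D2:**
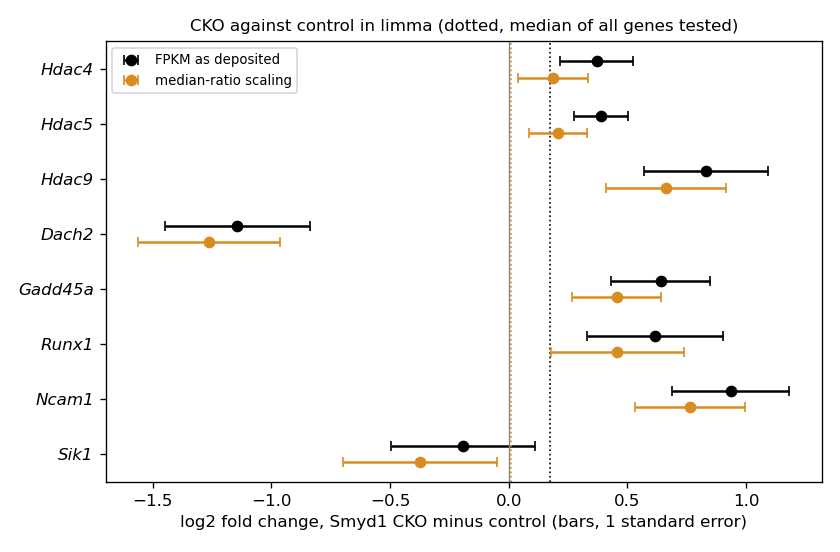
log2 fold change (x axis, CKO minus control) of the 8 genes from limma with bars of 1 standard error, for the deposited FPKM (black) and after median-ratio scaling (orange), with dotted lines at the median of all genes tested. Scaling moves every gene toward lower values, Hdac4 from 0.37 to 0.19, and leaves Dach2 below -1.

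Ratios of FPKM within a library do not depend on a single factor per library, as median-ratio scaling uses. The Hdac4 to Dach2 ratio ran from 4.20 to 17.1 in controls (median 9.05) and from 11.4 upward in CKOs (median 35.8). All CKOs but CKO 5 exceeded every control. The highest ratio, 188 in CKO 6, rests on an estimated 2 Dach2 fragments and has a 95% counting interval of 52.1 to 1550 (exact Poisson, counting error only). The interval of control 4, the highest control, was 10.2 to 31.3 and overlapped those of CKO 1 to 5. Those of CKO 1, 3, 4 and 6 lay above the intervals of every other control. The Hdac4 to Hdac5 ratio overlapped between groups, at 1.10 to 1.48 in controls and 1.05 to 1.78 in CKOs. Hdac4 to Hdac9 also overlapped, with medians of 4.27 and 2.93.

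The proteins that class IIa HDACs work with were mixed. Of 9 partners tested, 3 were higher (Mef2a, Mef2c and Rfxank) and 1 lower (Hdac3) at unadjusted P, where 18.1% and 1.76% of all genes passed, and 0 passed the adjusted threshold. After median-ratio scaling 2 were higher and 1 lower at unadjusted P, where 6.62% and 7.44% of all genes passed. Their median log2 fold change was 0.12, and -0.07 after scaling. Hdac7, the remaining class IIa deacetylase, was at 0.568 ± 0.0820 and 0.690 ± 0.126 FPKM (log2 fold change 0.24, adjusted P = 0.417). Mef2c, a MEF2 factor, was at 73.2 ± 7.15 and 104 ± 22.6 FPKM (log2 fold change 0.48, adjusted P = 0.0830, and 0.29 with adjusted P = 0.318 after scaling). Rfxank, an ankyrin-repeat protein that binds class IIa HDACs, was at 0.488 ± 0.166 and 0.786 ± 0.106 FPKM (0.63, adjusted P = 0.102). Hdac3, the catalytic deacetylase of the NCoR complex and named after its values were seen, was at 9.31 ± 0.969 and 7.97 ± 0.736 FPKM (-0.22, adjusted P = 0.230) and was lower past the threshold after median-ratio scaling (-0.41, adjusted P = 0.0443), whereas 0 partners passed after quantile normalization or the length and GC correction.

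Of 26 genes tested for export from the nucleus (kinases, 14-3-3 proteins, phosphatase subunits and the export receptor), 4 were higher (Camk2d, Prkaa1, Mark3 and Ppp2r1a) and 1 lower (Camk2a) at unadjusted P, where 18.1% and 1.76% of all genes passed. After median-ratio scaling 2 of the 26 were higher and 4 lower, where 6.62% and 7.44% of all genes passed. Their median log2 fold change was 0.10, and -0.09 after scaling. At adjusted P, 2 rose, where 2.02% of all genes were higher, and 0 rose after median-ratio scaling. Prkaa1, the alpha1 catalytic subunit of AMPK, rose from 2.31 ± 0.295 to 3.52 ± 0.557 FPKM and all 6 CKOs lay above all controls (log2 fold change 0.58, adjusted P = 0.0303). Camk2d, a calcium/calmodulin kinase that docks on HDAC4, rose from 5.94 ± 0.900 to 9.95 ± 2.90 FPKM (0.70, adjusted P = 0.0493). After scaling their adjusted P were 0.0814 and 0.108. The count of 2 also went to 0 without control 2, 3, 4, 5 or 6 or CKO 1, 3 or 6.

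Sik1, the kinase of the CREB arm, overlapped between the groups. Its FPKM was 1.74, 2.19, 1.38, 6.17, 2.13 and 3.97 in controls 1 to 6 and 2.30, 1.56, 2.89, 2.15, 1.67 and 3.29 in CKO 1 to 6. Control 4 and control 6 were the highest of the 12, and all CKOs lay inside the control range. The means were 2.93 ± 1.82 and 2.31 ± 0.677 FPKM (log2 fold change -0.19 ± 0.30, adjusted P = 0.746, exact permutation P = 0.615). Without control 4 the log2 fold change was 0.05.

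Around Sik1, 14 of 15 CREB, CRTC and immediate-early genes were tested. At unadjusted P, 5 were lower (Nr4a2, Nr4a3, Egr1, Jun and Junb) and 2 higher (Creb1 and Crtc3), where 1.76% and 18.1% of all genes passed, and 0 passed the adjusted threshold. After median-ratio scaling 5 were lower and 0 higher at unadjusted P, where 7.44% and 6.62% of all genes passed. The list had a median log2 fold change of -0.32, against 0.18 for all genes. Nr4a2, an orphan nuclear receptor, was at 0.306, 0.735, 0.242, 1.497, 0.577 and 1.01 FPKM in controls and at 0.412, 0.170, 0.212, 0.158, 0.119 and 0.207 FPKM in CKOs. All CKOs but CKO 1 lay below all controls (log2 fold change -1.26, adjusted P = 0.0690). Egr1, an immediate-early transcription factor, ranged from 0.452 to 10.1 FPKM in controls and from 0.334 to 0.779 FPKM in CKOs (-1.92, adjusted P = 0.0778). Without control 1 and CKO 5, chosen after seeing the data, 4 genes of this list were lower at adjusted P, as were 110 of all genes.

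Gadd45a, the stress protein that promotes fiber atrophy, was at 10.96, 7.12, 4.88, 4.59, 5.64 and 4.61 FPKM in controls 1 to 6. In CKO 1 to 6 it was at 13.1, 8.03, 8.29, 11.5, 9.37 and 7.23 FPKM. Control 1 was high, and only CKO 1 and CKO 4 exceeded it, while all CKOs were above the other controls. The means were 6.30 ± 2.47 and 9.58 ± 2.25 FPKM (log2 fold change 0.64 ± 0.21, adjusted P = 0.116, exact permutation P = 0.0281). After median-ratio scaling the log2 fold change was 0.45 with an adjusted P of 0.281 and an exact permutation P of 0.0606. Without control 1, on the deposited values, the log2 fold change was 0.81 with an adjusted P of 0.0097. Over all genes 1075 were then higher at adjusted P, against 257 with every library. Control 1 also had the highest summed level of 5 fibroblast markers, 680 FPKM against 177 FPKM in the lowest control and 243 to 404 FPKM in CKOs, and 2 of the 5 were higher in the CKO at unadjusted and 0 at adjusted P. At unadjusted P 18.1% of all genes were higher. After median-ratio scaling 1 of the 5 markers was, where 6.62% of all genes were. The part of fibroblasts in the Gadd45a values was not tested.

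The listed genes around Gadd45a depended on scaling. Of 8 tested, 1 was higher (Cdkn1a, a cell cycle inhibitor) and 2 lower (Gadd45b and Atf4) at unadjusted P, where 18.1% and 1.76% of all genes passed, and 0 passed the adjusted threshold. After median-ratio scaling 0 were higher and 4 lower at unadjusted P, where 6.62% and 7.44% of all genes passed. Gadd45b, its paralog, was at 3.30 to 7.55 FPKM in controls and 1.05 to 3.99 FPKM in CKOs (log2 fold change -1.12, adjusted P = 0.0613). Atf4, the transcription factor that can induce Gadd45a, was at 40.7 ± 4.44 and 32.1 ± 5.75 FPKM (-0.36, adjusted P = 0.136) and was lower past the threshold after scaling (-0.54, adjusted P = 0.0181).

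Runx1, a transcription factor that denervated fibers induce and that limits their wasting, was low in all mice. Its FPKM was 0.550, 0.511, 0.318, 0.469, 0.262 and 0.416 in controls 1 to 6 and 0.802, 0.525, 1.02, 0.742, 0.238 and 1.18 in CKO 1 to 6. CKO 1, 3, 4 and 6 lay above all controls, and CKO 5 was the lowest of the 12. The means were 0.421 ± 0.112 and 0.750 ± 0.338 FPKM (log2 fold change 0.62 ± 0.29, adjusted P = 0.245, exact permutation P = 0.0844). After median-ratio scaling the log2 fold change was 0.46 with an adjusted P of 0.512 and an exact permutation P of 0.167. Runx1 is also expressed in blood cells, whose 6 markers summed to 2.45 to 7.24 FPKM in controls and 2.58 to 5.86 FPKM in CKOs, with 0 of 6 passing at unadjusted P. Among 5 family members and cofactors tested, 1 was higher at unadjusted P, where 18.1% of all genes passed, and 0 at adjusted P. That was the corepressor Tle1, at 2.72 ± 0.426 and 3.50 ± 0.763 FPKM (0.34, adjusted P = 0.217), followed by Tle3 (0.34, adjusted P = 0.256). After median-ratio scaling 0 of the 5 passed at unadjusted P.

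Ncam1, the adhesion molecule that spreads over the surface of denervated fibers, had the smallest limma P of the 8 on the deposited FPKM, while Dach2 had it after median-ratio scaling. Its FPKM was 1.08, 0.660, 0.862, 0.786, 0.751 and 0.852 in controls 1 to 6. In CKO 1 to 6 it was 2.12, 1.55, 1.83, 1.17, 0.880 and 3.36. All CKOs but CKO 5 lay above all controls, and CKO 6 was highest. The means were 0.833 ± 0.144 and 1.82 ± 0.879 FPKM (log2 fold change 0.94 ± 0.25, adjusted P = 0.0623, exact permutation P = 0.00433). After scaling the log2 fold change was 0.76 with an unadjusted P of 0.00491 and an adjusted P of 0.131. The exact permutation P was then 0.0152. On the deposited values the threshold was passed without control 1 (adjusted P = 0.0274) and without CKO 5 (adjusted P = 0.0163). Without control 1, 1075 of all genes were higher at adjusted P, against 257 with every library.

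Satellite and Schwann cells also make Ncam1, and their markers are given beside it. Of 5 satellite markers 3 were higher (Pax7, Myf5 and Vcam1) at unadjusted and 0 at adjusted P, with sums of 6.73 to 11.8 FPKM in controls and 9.02 to 16.6 FPKM in CKOs. Of 7 Schwann markers 3 were higher at unadjusted and 0 at adjusted P, with sums of 11.6 to 16.0 and 13.7 to 21.1 FPKM. On the deposited values 18.1% of all genes were higher at unadjusted P. After median-ratio scaling 2 satellite and 0 Schwann markers were, where 6.62% of all genes were. Sox10 was listed at 0 in control 1 and Ngfr in control 2. The part of these cells in the Ncam1 difference was not tested. The list labelled NCAM1 partners also holds other adhesion molecules. Of its 6 genes tested, 1 was higher at unadjusted and 0 at adjusted P. That was Vcam1, a satellite cell and endothelial adhesion molecule already counted among the satellite markers above. It was at 0.987 ± 0.556 and 1.85 ± 0.485 FPKM (0.92, adjusted P = 0.0669). The GDNF coreceptor Gfra1 was at 0.466 ± 0.106 and 0.711 ± 0.261 FPKM (0.48, adjusted P = 0.253).

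The CKO mice differed among themselves, and several of the genes set the same mice apart, a pattern described after the values were seen. CKO 1, 3 and 6 held the 3 highest values of Ncam1, Runx1 and Hdac9 among the 12 mice, and CKO 6 the lowest Dach2. The highest Hdac4 values were in CKO 1, 6 and 4, and CKO 1, 3 and 6 had the 3 highest Sik1 values of the CKOs, below control 4 and control 6. Dach2 in CKO 1 was the second highest of the CKOs. The same mice held the 3 highest sums of 5 slow-fiber markers (Myh7, Tnni1, Tnnc1, Tnnt1 and Myl2). That sum was 14.4, 7.41, 4.10, 23.9, 7.28 and 7.71 FPKM in controls 1 to 6 and 105, 9.08, 66.2, 16.9, 8.86 and 245 FPKM in CKO 1 to 6. All 5 slow markers were higher at unadjusted P and 0 at adjusted P, where 18.1% and 2.02% of all genes were higher. After median-ratio scaling 4 of the 5 were higher at unadjusted P, where 6.62% of all genes were. CKO 2, 4 and 5 had slow sums inside the control range, and CKO 5 also held the lowest Runx1 and Ncam1 and the highest Dach2 of the CKOs. Gadd45a did not follow this order, as CKO 6 had the lowest Gadd45a of its group. Whether slow fibers or neighbouring slow muscle had a part in the values of any of the 8 genes was not tested.

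**Figure D3:**
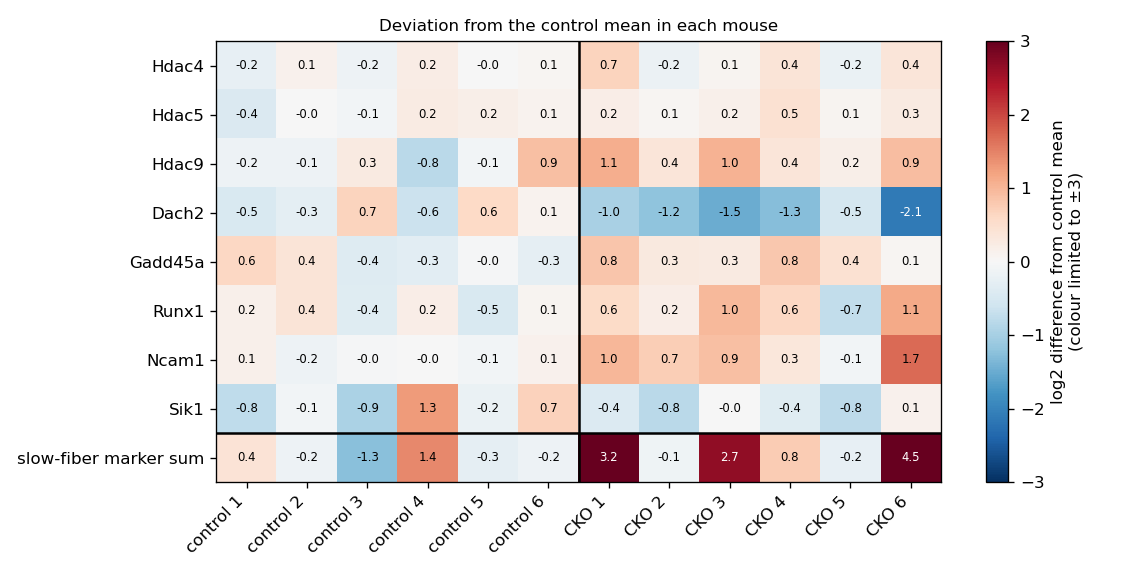
log2 difference of each gene (y axis) from the mean of the controls in each mouse (x axis), on median-ratio scaled log2(FPKM + 0.1), with the summed slow-fiber markers on the bottom line in scaled FPKM without the 0.1. CKO 1, 3 and 6 combine high Ncam1, Runx1 and slow markers, CKO 6 has the lowest Dach2, and every line of CKO 5 lies within 1 log2 unit of the control mean.

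Ordered by mean level per transcript length in controls, Gadd45a (6.30 FPKM) came first, then Hdac4 (3.40), Sik1 (2.93), Hdac5 (2.68), Hdac9 (0.852), Ncam1 (0.833), Dach2 (0.451) and Runx1 (0.421). Neighbours from Sik1 to Hdac5, from Hdac9 to Ncam1 and from Dach2 to Runx1 overlapped within their spread, as did Sik1 with Hdac4. In CKOs Ncam1 (1.82 FPKM) stood above Hdac9 (1.56 FPKM), again with overlapping values, and Dach2 (0.148 FPKM) came last.

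Myogenin and its targets are the readout of the HDAC4-DACH2 arm. Myog was at 3.56, 0.668, 1.78, 2.42, 1.03 and 1.26 FPKM in controls 1 to 6 and at 6.12, 4.51, 3.56, 1.66, 4.57 and 6.83 FPKM in CKO 1 to 6. CKO 1, 2, 5 and 6 lay above all controls and CKO 3 and CKO 4 lay within the control range (log2 fold change 1.36 ± 0.37, adjusted P = 0.0657). Set against Dach2 in the same library, the Myog to Dach2 ratio was 1.57 to 10.9 in controls (median 2.61) and 13.0 or higher in every CKO (median 31.5). The lowest CKO ratio, 13.0 in CKO 4, rests on an estimated 11 Dach2 fragments (95% counting interval 5.49 to 19.7). The highest control ratio, 10.9 in control 1, rests on 18 (10.7 to 28.4), so the gap between the groups lies within counting error. The Myog to Dach2 ratio was chosen after its values were seen.

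Of 16 denervation-induced genes tested out of 19 listed, 11 were higher at unadjusted P and 0 lower, and 6 rose at adjusted P, where 18.1% and 2.02% of all genes were higher. After median-ratio scaling 8 were higher at unadjusted P, against 6.62% of all genes, and 3 at adjusted P, against 0.764%. The median log2 fold change was 0.78, against 0.18 for all genes. The list was chosen with earlier results of these data known, so its excess over all genes is not an independent test. Chrnd, the delta subunit of the acetylcholine receptor, rose from 0.169 ± 0.0636 to 0.503 ± 0.0948 FPKM with all 6 CKOs above all controls (log2 fold change 1.18, adjusted P = 0.00721). Chrna1, the alpha1 subunit, rose from 1.26 ± 0.331 to 2.27 ± 0.511 FPKM (0.81, adjusted P = 0.0331). Chrng, the fetal gamma subunit, was too low to be tested.

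Eda2r, a receptor of the tumor necrosis factor family, rose from 1.44 ± 0.399 to 7.19 ± 4.27 FPKM with all 6 CKOs above all controls (log2 fold change 2.09, adjusted P = 0.00275). Sln, the calcium pump inhibitor sarcolipin, rose from 1.47 ± 2.09 to 25.8 ± 24.7 FPKM (3.95, adjusted P = 0.0173). Kcnn3, a calcium-activated potassium channel of denervated fibers, rose from 0.335 ± 0.0815 to 1.11 ± 0.538 FPKM (1.34, adjusted P = 0.0341). Embryonic myosin Myh3 rose from 0.906 ± 0.455 to 10.03 ± 9.79 FPKM (2.67, adjusted P = 0.0358), and reads of close myosin paralogs are uncertain. The 3 highest values of Sln, Myh3, Kcnn3, Eda2r and Chrna1 were all in CKO 1, 3 and 6, the mice with the high slow-fiber sums, while those of Chrnd were in CKO 1, 2 and 5. Sln was at 21.8, 59.9 and 52.8 FPKM in CKO 1, 3 and 6 and at 7.89, 10.2 and 1.81 FPKM in CKO 2, 4 and 5. The part of slow fibers in these values was not tested.

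The ubiquitin ligases of the same response, named after their values were seen, did not pass the threshold. Trim63 was at 38.1 ± 20.1 and 28.8 ± 8.73 FPKM (log2 fold change -0.33, adjusted P = 0.477). Fbxo32 was at 15.3 ± 4.43 and 16.3 ± 8.89 FPKM (-0.02, adjusted P = 0.978), and Fbxo30 at 2.92 ± 0.428 and 3.11 ± 0.451 FPKM (0.09, adjusted P = 0.720, and -0.09 after scaling). Musk, the agrin coreceptor kinase of the synapse, was at 1.25 ± 0.173 and 1.76 ± 0.753 FPKM (0.37, adjusted P = 0.375). The 3 denervation-induced genes that rose at adjusted P after median-ratio scaling were Eda2r, Chrnd and Sln. On the deposited values the adjusted count was also 3 without control 2, 3 or 4 or CKO 1, 3 or 6. Without control 1 and CKO 5, chosen after seeing the data, it was 10, and over all genes 1252 were higher.

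Of the 3 genes listed as lowered by denervation, 0 passed at adjusted or unadjusted P on the deposited values. Ppargc1a, the coactivator of mitochondrial genes, was at 11.95 ± 8.41 and 7.74 ± 1.01 FPKM (-0.43, adjusted P = 0.382). Pfkm, the muscle phosphofructokinase, was at 393 ± 17.1 and 445 ± 59.3 FPKM (0.17, adjusted P = 0.387), and its sign turned with scaling (-0.02).

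**Figure D4:**
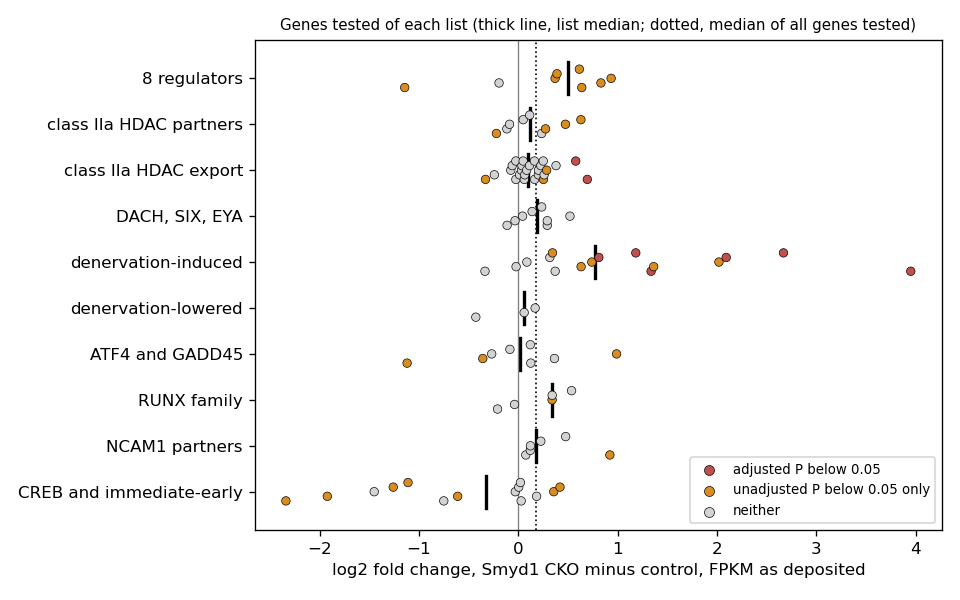
log2 fold change (x axis, CKO minus control) of every tested gene in each list (y axis), red where adjusted P is below 0.05, orange where only the unadjusted P is, with a thick line at the list median and a dotted line at 0.18, the median of all genes. The denervation-induced list has its median at 0.78 and 6 red points, and the CREB and immediate-early list has its median at -0.32. All lists were chosen with earlier results of these data known.

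Genes whose mouse-to-mouse pattern was most like each regulator were named by Pearson's r over the 12 mice after the mean of each group was subtracted, as a description. They were Atp2c1 (0.915) and Ddi2 (0.885) for Hdac4, and Ep300 (0.972) and Smarcc2 (0.963) for Hdac5. For Hdac9 they were Rnaseh2a (0.920) and Zfp850 (0.913), and for Dach2 they were Mc5r (0.895) and Sybu (0.877). For Gadd45a they were Tcn2 (0.937) and Ctsc (0.883), and for Runx1 they were Med9 (0.948) and Zfp961 (0.933). For Ncam1 they were 2810004N23Rik (0.952) and Zfp560 (0.946), and for Sik1 they were S1pr1 (0.922) and Pdcd6ip (0.918). Each pair is the highest of 12695 genes, and the mice share libraries and depth across genes.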

How the data were processed

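RNA from the tibialis anterior of 12 mice (6 controls, 6 Smyd1 CKOs) was depleted of ribosomal RNA and sequenced, 1 library per mouse. The authors aligned reads with TopHat2 and discarded those that mapped to several places, and the deposited values are FPKM per gene symbol from Cufflinks. The submitters' processing notes name TopHat2 2.0.10, Cufflinks 2.1.1 and mm9. The strand setting of the counting is not given in the sources used here, and antisense loci overlap Gadd45a, Runx1 and Ncam1. The authors' own tests used DESeq on counts, which were not analysed here.

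Each file held 23950 genes, of which 27 with symbols turned into dates were left out. limma 3.58.1 (R 4.3.3) was fitted with an intensity trend on log2(FPKM + 0.1) for the 12695 genes that reached 0.1 FPKM in 6 or more libraries, with two-sided P-values adjusted by Benjamini-Hochberg over all of them. Fold changes are on that scale and understate those of low genes. Exact permutation tests were two-sided. On simulated data with 12503 genes the fit recovered 92.5% of 4-fold and 70.5% of 2-fold changes. The simulated noise was normal and independent for each gene, with no shift over all genes and no deviating library. The rates therefore do not cover those features of the real data.

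Estimated fragments used the longest transcript of GENCODE M21 (GRCm38) and an estimated depth of 10600000 to 19100000 fragments. Promoter windows were taken from RefSeq on GRCm38.p6. The 8 genes and all lists were chosen with earlier results of these data known. From each list the genes past the adjusted threshold, or else the 2 with the smallest P, were named. Counts of 5 or fewer outside this rule were spelled out after their values were seen. Some genes of the lists are not reported here by name and stay in the fit and the counts. Alternatives were median-ratio, quantile and length with GC scaling, another pseudocount (1), another low-value limit (1 FPKM) or no limit, the replicate number as a block, limma without trend, sample weights, and each library left out. Leaving out control 1 and CKO 5 together was chosen after seeing the data. Python 3.11.15 was used for the descriptions.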

Additional observations from a re-analysis of the deposited data

Results flagged for a closer look

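Hdac4 in control 4 stood apart from the other controls. It was at 3.833 FPKM, and the nearest control was at 3.382 FPKM, a gap of 0.749 of the whole control range. Among the 18 groups of 6 mice tested for such a value (Smyd1 and the 8 regulators in either genotype) it was the only one. Chance flags about 1 in 20 such groups, so 1 flag among 18 is near what chance gives. Control 4 also had the highest Sik1 (6.17 FPKM) and the highest slow-fiber marker sum (23.9 FPKM) of the controls. Without control 4 the Hdac4 log2 fold change was 0.41 (limma adjusted P = 0.238), next to 0.37 with it.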

How the results depend on the processing

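Over all genes, the count higher in the CKO at adjusted P (257) was 170 with no filter, 97 after median-ratio scaling, 101 after quantile normalization, 99 after the length and GC correction and 1400 with sample weights. The count lower (34) was 90, 68 and 90 after these 3 scalings and 115 with weights. At unadjusted P, 2300 higher and 224 lower became 841 and 944, 810 and 837, and 775 and 965 after the 3 scalings, and 3704 higher with weights. Leaving out each library gave 88 to 1075 higher and 18 to 69 lower at adjusted P, the highest counts without control 1. Without control 1 and CKO 5, chosen after seeing the data, the counts were 1252 and 110.

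Among the 8 regulators, 0 of which passed at adjusted P, 1 (Dach2) was lower after each of the 3 scalings, where 3 rather than 6 were higher at unadjusted P. With sample weights 5 were higher and 1 lower at adjusted P, and without control 1 and CKO 5 they were 3 and 1. Leaving out each library gave 0 to 2 higher and 0 to 1 lower. The filter at 1 FPKM removed Dach2 and Runx1, so 0 were lower at unadjusted P. The log2 fold change of Sik1 ran from -0.3621 to 0.0538 over the libraries left out and turned only without control 4, and that of Pfkm turned to -0.0176 after median-ratio scaling and -0.0175 after the length and GC correction, with or without the block. No other direction turned among the 8 regulators, Smyd1 and the genes named by rule from the lists.

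The replicate number did not pair the mice: the correlation of same-numbered deviations ran from -0.0861 to 0.164, above 0.1 in 2 of 6 pairs. With the replicate block, 3 regulators were higher at adjusted P (Hdac9 at 0.0402, Gadd45a at 0.0478 and Ncam1 at 0.0473). The count over all genes with this block alone is not given here, so these 3 cannot be set against it. With the block and the length and GC correction, 3 were higher at unadjusted P, and over all genes 97 were higher and 86 lower at adjusted P and 793 and 971 at unadjusted P. Depth limits Dach2 most, with an estimated 2 fragments in CKO 6, and intervals cover counting error only.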
